A study of Drosophila melanogaster with 58 samples.

Results

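The genes described here are 9 maternal genes of Drosophila that supply the oocyte, move its RNAs or set the axes of the embryo: yl, swa, BicD, grk, spz, Tl, cact, dl and tor. They were taken as the probes whose symbol in the platform annotation is one of these names, and they are 9 of the 11663 genes with a probe of their own on the array. Each has 1 probe except dl, which has 2. The genes were selected on their average ratios in these same arrays, which were known when the list was drawn up. Averages and single stages of the 9 genes are therefore given as descriptions without a p-value, and only the change from early to late stages is tested.

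The arrays compared whole embryos that expressed gcm ectopically or lacked it with wild type of the same stage. gcm is the gene of a transcription factor that switches neural precursors to glial fate and also acts in blood cells. Each array carried the labelled cDNA of both kinds of embryo, 1 in Cy5 and 1 in Cy3, and gave the log2 ratio of perturbed over wild type used below. For the gain of function, progeny of the Gal4 line MZ1060 crossed to the UAS-gcm stock B5446 were set against a pool of mRNA from both parental lines in equal amounts. These embryos came from stages 9 to 16, with 33 arrays in all, 5 at stage 14 and 4 at every other stage. In the loss-of-function experiment, homozygotes for the gcmN7-4 allele, sorted by machine for lack of GFP, were set against OregonR embryos treated alike. This experiment had 25 arrays, 5 at stage 10 and 4 each at stages 11, 12, 13, 14 and 16. The balancer that supplied the GFP was Kr-GFP up to stage 13 and Ubi-GFP from stage 14 on. Mutant and control differ in strain as well as in gcm, as do the cross and the pool of its parents, and the share of each difference cannot be told apart. The tissues in which MZ1060 drives expression are not stated in the labels. In whole embryos, fewer cells of a type and less RNA per cell cannot be told apart.

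In the ovary the nurse cells make most of these RNAs and pass them to the oocyte, and much of the maternal supply is cleared from the embryo around the time zygotic transcription begins, before the stages sampled here. The oocyte takes up yolk protein through the receptor encoded by yl, yolkless. BicD, Bicaudal D, is an adaptor that links RNA cargo to the dynein motor, swa, swallow, is needed to hold bicoid RNA at the anterior of the oocyte, and grk, gurken, encodes the TGF-alpha-like ligand by which the oocyte signals to the follicle cells. In the early embryo the ligand Spätzle, made from spz, activates the receptor Toll, from Tl. Toll signalling then removes the inhibitor Cactus, from cact, and lets the Rel-family transcription factor Dorsal, from dl, enter ventral nuclei. The receptor tyrosine kinase Torso, from tor, specifies both ends of the embryo. Toll, Cactus and Spätzle act again later, in immunity and in embryonic tissues.

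Of 23808 probes, between 11991 and 23103 were measured on an array of the gain of function and between 10822 and 23253 on one of the loss of function. The median rank correlation of repeat spots was 0.337 and 0.379. The gcm probe itself was higher than wild type on 31 of 33 gain-of-function arrays, with an average log2 ratio of 1.35 ± 0.10 (SE), and lower on 23 of 25 loss-of-function arrays, with an average of -0.95 ± 0.12. The 4 arrays labelled gain of function at stage 9 did not show gcm raised, with a mean of 0.13 ± 0.27 (SD, n = 4) and 2 arrays below wild type, against stage means of 0.92 to 1.88 at stages 10 to 16. Stage 9 is therefore called gain of function by its label alone. At stages 12 and 16 of the loss of function, gcm was higher than wild type on 1 of 4 arrays each. The labelled dyes of replicate 4 of loss-of-function stage 12 are in some doubt. In replicate 2 of loss-of-function stage 11, several of the 9 genes stand apart. Both arrays, called the arrays in doubt below, were left out in a further fit, whose values are given where they matter. The design text calls the hybridisations of a stage independent but does not say that each had its own collection of embryos, so p-values measure the spread between these arrays. The number of arrays limits the precision, and the files give ratios without intensities.

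The 9 genes were chosen with their averages known, and these averages lay above 0 in both experiments where tested. The average over the 8 gain-of-function stages lay above 0 for all 9 genes, where 48.4% of all 14780 probes tested did. The median of the genes was 0.85 against -0.01 for all probes. In the loss of function the average lay above 0 for the 8 genes tested, where 50.1% of all 15025 probes did. The median of the genes was 0.49 against 0.00 for all probes. There Tl and cact were each higher on 14 of 25 arrays and dl on 15 of 25. Of the 9 genes, 7 passed the adjusted threshold of 0.05 in the gain of function, all higher, where 27.8% of all probes passed. Of the 8 in the loss of function, 6 passed, all higher, where 27.6% of all probes passed. The members were chosen with these averages known, so nothing is read from any of these counts. The highest averages were those of tor and swa in the gain of function and of yl and swa in the loss of function, and dl was near 0 in both.

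**Figure D1:**
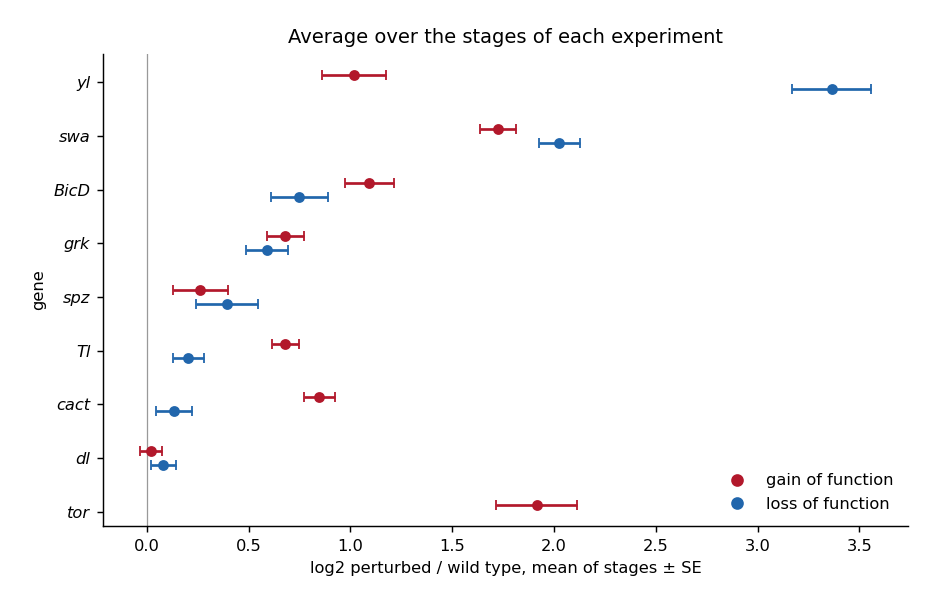
Average log2 ratio of perturbed over wild type (horizontal axis) for each of the 9 genes (vertical axis), as the mean of the stage coefficients with its standard error, in the gain of function (red) and the loss of function (blue). The point of yl lies at 3.36 in the loss of function and at 1.02 in the gain of function, and both points of dl lie near 0. No loss-of-function average is drawn for tor, which was not tested at stage 16.

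The yolk receptor gene yl had the highest average of any probe tested in gcm mutants. Its loss-of-function ratio averaged 3.36 ± 0.20 (SE), a 10.3-fold excess over OregonR, and ranked 1 of 15025 probes. At stage 10 the 5 arrays gave log2 ratios of 3.93, 2.73, 4.01, 2.38 and 2.53. At stage 11 the 3 arrays that measured it gave 4.20, 4.23 and 3.80, and at stage 12 the 4 arrays gave 2.92, 2.76, 3.36 and 4.36. All of these arrays lay more than 2 log2 units above wild type. At stage 13 the ratios were 3.41, 4.92, 5.31 and 2.04. At stage 14 they were 2.66, 3.91 and 3.09, and at stage 16 they were 3.76, 2.07 and 1.27. The lowest mean was that of stage 16 (2.36 ± 1.27, SD, n = 3), whose arrays lay below those of stage 11 and overlapped with those of the other stages. The single-stage fits passed the threshold at 6 of 6 stages, where in stage order 5.41%, 8.67%, 7.32%, 9.6%, 2.55% and 3.58% of probes passed, again a description only.

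The excess of yl was smaller in the gain of function. The average was 1.02 ± 0.16, or 2.03-fold, with 29 of 32 arrays above 0 and a range from -1.29 through a median of 1.02 to 3.37. Stage 9 had a mean of 0.31 ± 0.39 (SD, n = 3) and stage 10 one of 0.35 ± 1.29 (n = 4). At stage 14 the mean was 2.19 ± 0.55 (n = 5), from ratios of 1.90, 3.00, 1.87, 1.67 and 2.48. Those 5 arrays lay above all arrays of stages 9, 10, 13 and 15 and overlapped with stages 11, 12 and 16. Of them, 3.00 is the mean of repeat spots at 4.543 and 1.452, and 1.87 and 2.48 rest on 1 spot each. The spot at 1.452 lies within the arrays of stages 10 and 13. At stage 16, replicate 3 (3.37) rests on repeat spots of 5.995 and 0.748 that disagree, and the other 3 arrays lay between 0.12 and 1.32.

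swa, whose product keeps bicoid RNA in place, was above wild type on every array of both experiments. The gain-of-function average was 1.72 ± 0.09, or 3.3-fold, with array ratios from 0.98 through a median of 1.71 to 2.46. Its stage means ranged from 1.33 ± 0.25 (SD, n = 4), at stage 16, to 2.07 ± 0.32 (n = 4), at stage 12. The arrays of stage 16 lay below all arrays of stages 11, 12 and 14 and overlapped with those of the other stages. Stage 14 was the tightest, with ratios of 1.92, 1.83, 1.87, 2.01 and 1.76. In the loss of function the average was 2.03 ± 0.10, or 4.07-fold, from 0.54 through a median of 2.12 to 3.91. At stage 10 the mutant ratios were 2.53, 2.11, 2.46, 3.24 and 2.80, and at stage 11 they were 2.94, 2.24, 3.91 and 3.42. At stage 16 they were 0.54, 1.48, 0.72 and 0.74, below every array of stages 10 and 11. The mean went from 3.13 ± 0.71 (n = 4) at stage 11 to 0.87 ± 0.42 (n = 4) at stage 16, which is from an 8.74-fold to a 1.83-fold excess.

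BicD, the dynein adaptor gene, was in excess at early stages in both experiments and near wild type at the end. On the arrays labelled gain of function the ratios were 2.72, 1.13, 1.41 and 1.52 at stage 9, 2.27, 1.58, 1.24 and 1.57 at stage 10, and 1.52, 1.76, 1.73 and 1.92 at stage 11. The 16 arrays of stages 9 to 12 all lay above 1. At stage 13 the ratios were -0.10, 1.30, 0.95 and 0.59, and at stage 16 they were 0.09, 0.43, 0.26 and 0.27. Only replicate 2 of stage 13, at 1.30, reached the range of the early arrays. In the mutants the 5 ratios of stage 10 were 2.58, 2.44, 1.89, 1.15 and 2.17. Those of stage 11 were 2.45, -1.73, 2.06 and 2.23, where the low value of replicate 2 is the mean of repeat spots at 1.76 and -5.23. From stage 12 on the ratios fell through 0.14, 0.51, 1.22 and 1.74 at stage 12 to -0.46, -0.24, -0.75 and 0.12 at stage 16, where 3 of 4 mutant arrays were below wild type. The averages over all stages were 1.09 ± 0.12 (2.13-fold) with 32 of 33 arrays higher, and 0.75 ± 0.14 (1.68-fold) with 20 of 25 higher.

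grk, the ligand gene, was moderately higher in both experiments, with wide scatter between arrays. The gain-of-function average was 0.68 ± 0.09 (1.6-fold) with 28 of 33 arrays higher, and the loss-of-function average was 0.59 ± 0.10 (1.51-fold) with 20 of 25 higher. The scatter followed the dye. Where the perturbed RNA was in Cy3, the mean ratio of grk was 1.18 ± 0.47 (SD, n = 18) in the gain of function and 1.03 ± 0.60 (n = 11) in the loss of function. With the perturbed RNA in Cy5, it was 0.18 ± 0.48 (n = 15) and 0.16 ± 0.44 (n = 14). The excess of grk was thus small in the latter orientation. The dye terms of the model take up the difference between the orientations, and the average weights both alike. Leading stages were gain-of-function stage 11, at 1.15, 1.34, 0.81 and 1.02, and loss-of-function stage 13, at 2.39, 1.19, 0.56 and 0.23, whose arrays overlapped with those of the other stages.

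**Figure D2:**
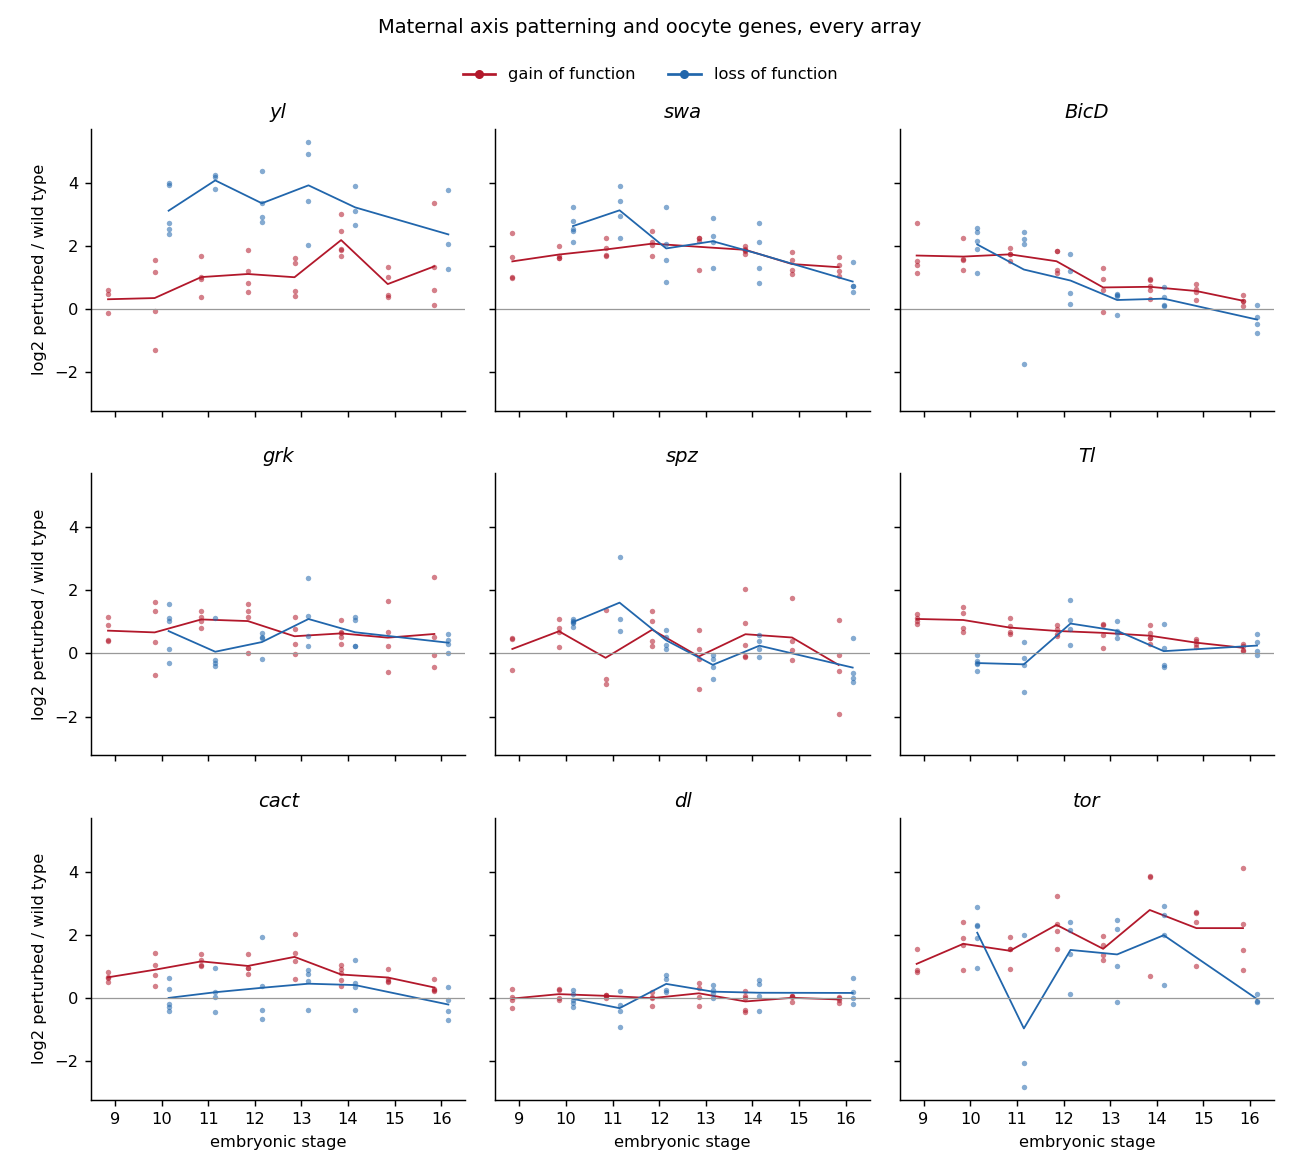
Log2 ratio of perturbed over wild type (vertical axis) by embryonic stage (horizontal axis) for the 9 genes, 1 panel a gene. Points are single arrays and lines join the stage means, in red for the gain of function (33 arrays) and in blue for the loss of function (25 arrays). The blue points of yl lie between 1.27 and 5.31, both lines of BicD come down to near 0 by stage 16, and dl stays near 0.

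Of the dorsoventral genes, the receptor and the inhibitor were in excess in the gain of function and the transcription factor was near wild type. Tl averaged 0.68 ± 0.07 (1.6-fold) and was higher on 33 of 33 arrays, from 0.07 through a median of 0.63 to 1.47. At stage 9 its ratios were 1.04, 0.94, 1.26 and 1.13, and at stage 10 they were 1.28, 0.67, 0.82 and 1.47. At stage 15 they were 0.30, 0.39, 0.21 and 0.46, and at stage 16 they were 0.28, 0.12, 0.25 and 0.07. The stages at both ends did not overlap. The stage means came down in order from 1.09 ± 0.14 (SD, n = 4) to 0.18 ± 0.10 (n = 4), although neighbouring stages overlapped.

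In the mutants the sign of Tl varied with the stage. It was below wild type at stage 10 on 5 of 5 arrays, at -0.25, -0.31, -0.57, -0.33 and -0.06. At stage 12 it was above on 4 of 4, at 0.27, 0.78, 1.05 and 1.69, and at stage 13 again on 4 of 4, at 0.70, 0.48, 1.04 and 0.64. The arrays of stage 10 overlapped with neither of these stages. Stage 14 had 2 arrays on each side of 0, and the average of 0.20 ± 0.08 (1.15-fold) therefore joins stages of opposite sign.

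cact, the inhibitor gene, was also higher on 33 of 33 gain-of-function arrays, with an average of 0.85 ± 0.08 (1.8-fold) and a range from 0.21 through 0.79 to 2.03. Its highest mean was at stage 13 (1.30 ± 0.60, SD, n = 4), from ratios of 0.58, 2.03, 1.42 and 1.16. Its lowest was at stage 16 (0.33 ± 0.18, n = 4), from 0.24, 0.21, 0.28 and 0.59, which overlapped with stage 13 by 1 array. In the mutants cact averaged 0.13 ± 0.09 and lay above 0 on 14 of 25 arrays. Its mutant ratio moved with the dye, at -0.23 ± 0.38 (SD, n = 11) with mutant RNA in Cy3 and 0.51 ± 0.64 (n = 14) with mutant RNA in Cy5.

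dl differed little from wild type. Its main probe averaged 0.02 ± 0.05 in the gain of function, with arrays between -0.46 and 0.48, and 0.08 ± 0.06 in the loss of function, with arrays between -0.91 and 0.73. The largest stage mean in size was that of loss-of-function stage 12, at 0.44 ± 0.27 (SD, n = 4), where all 4 arrays were higher, at 0.17, 0.26, 0.73 and 0.61. The second dl probe was noisier, with averages of 0.05 ± 0.18 and -0.28 ± 0.21, and the ratios of both probes correlated at only r = 0.20 over 57 arrays. At loss-of-function stage 11 the second probe read -2.07, -4.82 and 1.30 and the main probe -0.40, -0.23, 0.23 and -0.91.

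spz, the ligand gene, was measured with wide scatter, and its repeat spots correlated at r = -0.08 over the 47 arrays with both spots. In the gain of function it averaged 0.26 ± 0.13, with 20 of 31 arrays higher and a range from -1.92 through 0.25 to 2.03, and repeat spots differed by 4 log2 units or more on 5 of these arrays. In the mutants the arrays of stage 10 were uniform. They gave 1.00, 0.85, 1.04, 0.98 and 1.10, a 1.99-fold excess on the mean, and stage 12 gave 0.14, 0.27, 0.74 and 0.51. At stage 11 the ratios were 0.70, 1.08 and 3.05, the last from repeat spots at -0.25 and 6.34. At stage 13 all 4 arrays were below wild type, at -0.43, -0.80, -0.05 and -0.17, and at stage 16 the ratios were -0.63, -0.77, 0.49 and -0.89. All 12 arrays of stages 13, 14 and 16 lay below the lowest array of stage 10.

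tor, the terminal receptor gene, was higher than wild type on all 30 gain-of-function arrays that measured it. The average was 1.92 ± 0.20, or 3.77-fold, from 0.68 through a median of 1.68 to 4.11, which ranked 15 of 14780 probes. The value of 4.11, from replicate 3 of stage 16, rests on repeat spots of 1.611 and 6.599 that disagree. The lowest stage mean was 1.08 ± 0.40 (SD, n = 3), of stage 9, and the highest was 2.78 ± 1.82 (n = 3), of stage 14, and arrays of these stages overlapped. At stage 14 the ratios of 3.82 and 3.85 rest on 1 spot each, and the array with both spots gave 0.68. In the mutants tor was higher on 18 of 23 arrays. Stage 10 gave 0.96, 2.88, 2.31, 1.89 and 2.28 and stage 14 gave 0.40, 2.91, 2.002 and 2.63. Stage 11 gave 1.98, -2.06 and -2.82, and stage 16 gave -0.09, 0.12 and -0.14. The value of -2.06 is the mean of repeat spots at -4.136 and 0.013, and 1.98 and -2.82 rest on 1 spot each. The value of -0.14 is the mean of repeat spots at -1.885 and 1.604. At stage 11 the sign thus differed between arrays, but on spots that disagree or stand alone, and stage 16 lay near 0. At stage 16 the 3 arrays shared 1 dye orientation, so neither that stage nor the loss-of-function average was tested for tor.

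The genes were chosen on their averages, and the change from early to late stages was tested. Earlier results of these data were known at that choice, so these p-values may not be fully independent of it. BicD fell in both experiments, Tl fell in the gain of function, and swa and spz fell in the loss of function. The comparison set stages 13 to 16 against 9 to 12 in the gain of function, where 1.36% of probes passed the threshold, 1.06% lower. In the loss of function it set stages 13, 14 and 16 against 10 to 12, where 5.56% passed, 1.6% lower. Of the 9 genes, 2 passed in the gain of function and 3 of 8 in the loss of function, and all 5 calls were lower. The median difference of the genes was -0.18 against -0.01 for all probes in the gain of function and -0.15 against 0.06 in the loss of function.

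The fall of BicD was the largest. Its mean ratio went from 1.64 to 0.55 in the gain of function, a difference of -1.09 ± 0.24 (SE, 2.12-fold lower, limma adjusted p = 0.00948). In the mutants it went from 1.40 to 0.10, a difference of -1.31 ± 0.28 (2.47-fold lower, adjusted p = 0.00176). Fitted on the loss-of-function arrays alone, the mutant difference had an adjusted p of 0.0761 and did not pass. Without stage 9 the gain-of-function difference was -1.07 (adjusted p = 0.0338). The difference kept its sign in both dye orientations, at -1.13 and -1.02 in the gain of function and at -1.61 and -1.15 in the loss of function. It kept its call in the fits to both experiments without any 1 array, with mutant differences from -1.65 to -1.16. The value of -1.65 came without replicate 2 of stage 11, where BicD was at -1.73. Without the arrays in doubt the mutant difference was -1.55. Replicate 2 of stage 11 was put in doubt because several of the 9 genes stand apart on it. Leaving it out enlarges the fall of BicD, so nothing is read from -1.55.

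swa went from 2.52 to 1.53 in the mutants, a difference of -0.996 ± 0.201 (1.99-fold lower, adjusted p = 0.00104), and was above wild type on all 12 late arrays. The difference was -0.66 with mutant RNA in Cy3 and -1.27 with mutant RNA in Cy5. In the gain of function the swa difference was -0.15 ± 0.18 (adjusted p = 0.81). spz went from 1.00 to -0.21 in the mutants, a difference of -1.21 ± 0.30 (2.32-fold lower, adjusted p = 0.00977). The repeat spots of this probe did not agree across arrays of both experiments (r = -0.08), which limits trust in this value. With each pair of discordant repeat spots reduced to the spot nearer 0, the difference was -0.84 (adjusted p = 0.0266), and with arrays scaled to one spread it was -1.04 (adjusted p = 0.0745) and did not pass. Its gain-of-function difference was -0.22 ± 0.27 (adjusted p = 0.822). Whether swa and spz changed differently in the experiments was not tested.

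Tl went from 0.93 to 0.44 in the gain of function, a difference of -0.49 ± 0.13 (1.41-fold lower, adjusted p = 0.0455). This call lay at the threshold. It was lost without any 1 of 28 of the 58 arrays, with differences from -0.52 to -0.45 and adjusted p from 0.0167 to 0.0904, and without the dye terms (adjusted p = 0.0627). Without stage 9 the difference was -0.435 (adjusted p = 0.237) and did not pass. In the mutants the Tl difference was 0.24 ± 0.15 (adjusted p = 0.421). The other genes passed in neither experiment, with differences from -0.26 (grk) to 0.64 (yl) in the gain of function and from -0.32 (yl) to 0.35 (grk) in the loss of function. For yl in the gain of function, the difference of 0.64 ± 0.32 had an adjusted p of 0.402.

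Both the balancer and the array scale move with the late stages of the loss of function. Within the Kr-GFP balancer, stage 13 minus stages 10 to 12 gave -1.12 ± 0.39 for BicD (adjusted p = 0.0957), -1.36 ± 0.43 for spz (adjusted p = 0.0556) and -0.38 ± 0.29 for swa (adjusted p = 0.556), and none of the 9 genes passed. Before the arrays were centred, the median of all probes moved by 0.64 from early to late mutants. Relative to it, the uncentred differences were -1.37 for BicD, -1.31 for spz and -1.06 for swa, but without centring the values themselves were -0.73, -0.67 and -0.42 and no longer passed, and the calls were instead higher ones, of Tl at 0.82 and grk at 0.93. In the gain of function the uncentred BicD difference was -1.18 (adjusted p = 0.308), beside a shift of -0.10 over all probes.

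**Figure D3:**
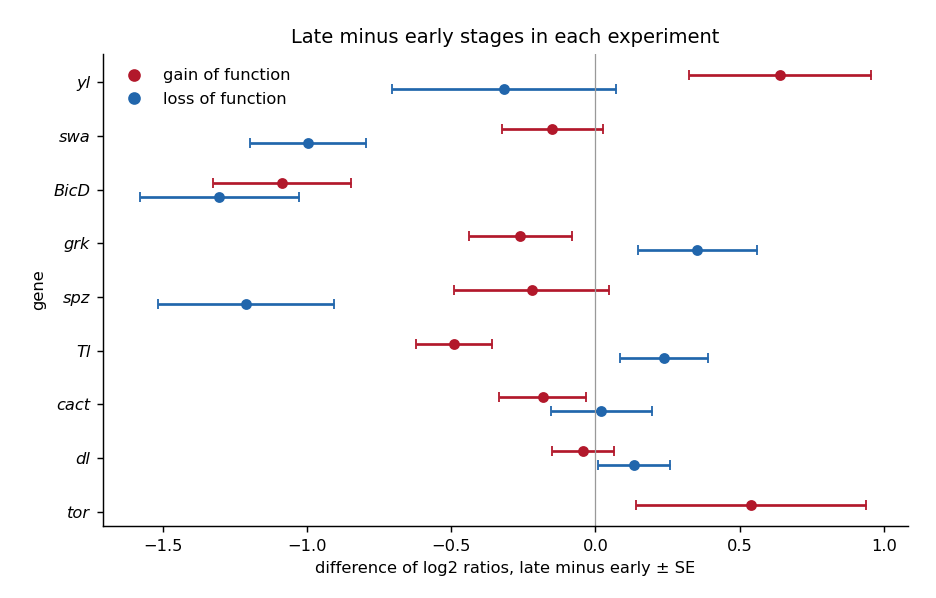
Late minus early difference of the log2 ratio (horizontal axis, with standard error) for each of the 9 genes (vertical axis) in the gain of function (red) and the loss of function (blue). BicD lies below -1 in both, spz at -1.21 and swa at -0.996 in the loss of function, and Tl at -0.49 in the gain of function. tor has no loss-of-function value.

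Other genes of the same pathways were measured with the same fits and tested over all probes. These lists and those below were also chosen with earlier results of these data known. Their p-values are therefore not independent of the choice of genes. In the gain-of-function average 14.1% of all probes were called higher and 13.6% lower, and in the loss-of-function average 13.9% and 13.8%, and shares of a list near these are not a result about it. Of the 12 other genes of dorsoventral signalling, 10 were tested in each average. In gain-of-function embryos 6 rose and 2 fell, with a median of 0.35. Those with the largest changes were snk, a serine protease upstream of Spätzle (0.91 ± 0.20, adjusted p = 0.000385), pll, the kinase Pelle below Toll (0.75 ± 0.09, adjusted p = 6.04e-09), pip, a sulfotransferase of the follicle cells (-0.55 ± 0.18, adjusted p = 0.0191), and cactin, a partner of Cactus (0.54 ± 0.08, adjusted p = 1.6e-06). In gcm mutants 2 rose and 2 fell, with a median of -0.03. The falls were those of wbl, windbeutel, which acts with pip (-1.26 ± 0.11, adjusted p = 2.02e-12), and Myd88, an adaptor of Toll (-0.57 ± 0.20, adjusted p = 0.0243). The rises were those of Spn27A, an inhibitor of the protease cascade (0.24 ± 0.09, adjusted p = 0.0411), and psq (0.23 ± 0.06, adjusted p = 0.00143).

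Of the 14 other terminal genes, 9 had a probe. In gain-of-function embryos 3 rose and 3 fell of 9 tested, led by csw, the phosphatase Corkscrew (1.00 ± 0.08, adjusted p = 2.42e-14) and the co-repressor gene gro (0.68 ± 0.09, adjusted p = 2.25e-08). In the mutants 3 rose and 2 fell of 8 tested. csw rose again (0.61 ± 0.09, adjusted p = 5.86e-07) and trk, the gene of a ligand of Torso, fell by 1.23 ± 0.41 on the log2 scale (adjusted p = 0.0209). From early to late stages of the gain of function csw fell (-0.84 ± 0.16, adjusted p = 0.0015), and the other 8 did not pass.

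Of 13 other genes of gurken signalling and oocyte RNA localisation, 10 were tested. In gain-of-function embryos 3 rose and 2 fell, and in the mutants 5 rose and 0 fell. otu, ovarian tumor, rose in both (0.59 ± 0.17, adjusted p = 0.00532, and 1.34 ± 0.20, adjusted p = 9.25e-07), as did enc, encore (0.39 ± 0.06, adjusted p = 1.4e-06, and 0.55 ± 0.07, adjusted p = 4.14e-08). BicC, an RNA-binding protein gene of the oocyte, rose in the mutants (0.84 ± 0.17, adjusted p = 0.00016). Imp, an RNA-binding protein gene, fell in the gain of function (-0.37 ± 0.07, adjusted p = 6.81e-05) and rose in the mutants (0.48 ± 0.08, adjusted p = 1.04e-05). egl, whose product works with BicD in RNA transport, had averages of 0.03 ± 0.05 and 0.04 ± 0.06 and passed in neither. Of this list enc fell from early to late gain-of-function stages (-0.80 ± 0.12, adjusted p = 0.000111).

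Of the maternal anteroposterior genes, 1 rose and 2 fell of 8 tested in the gain of function, with hb at -0.50 ± 0.07 (adjusted p = 3.43e-07) and tud at -0.32 ± 0.08 (adjusted p = 0.00277). In the mutants 3 rose and 0 fell of 7, led by brat (0.96 ± 0.08, adjusted p = 8.74e-14) and hb (0.44 ± 0.08, adjusted p = 5.21e-05). From early to late mutant stages tud (0.63 ± 0.19, adjusted p = 0.0406) and brat (0.61 ± 0.15, adjusted p = 0.00884) rose. Without stage 9, 3 of the list passed in the gain of function, 2 of them higher. osk, the gene that assembles the germ plasm, was measured on too few arrays at some stages to be tested. It is named as a single pick from this list. Its ratio was above 0 on 26 of 29 gain-of-function arrays, with a median of 1.56, and on 18 of 19 loss-of-function arrays, with a median of 2.14. bcd, nos and vas were not analysed here. Of the yolk and eggshell genes, 0 of 7 passed in the gain of function by limma, with adjusted p from 0.345 to 0.895 and 0 at an unadjusted p under 0.05. In the mutants 1 of 4 passed, the vitelline membrane gene Vm34Ca (0.54 ± 0.12, adjusted p = 0.000485). The yolk protein genes Yp1, Yp2 and Yp3, which encode cargo of the yl receptor, had gain-of-function averages of -0.25, 0.24 and 0.05.

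The genes that Dorsal and Torso act on in the early embryo showed small ratios. In gain-of-function embryos 1 of 8 passed, sna, which fell by 0.40 ± 0.07 on the log2 scale (adjusted p = 4.54e-06). In the mutants 4 of 8 passed and rose, sna by 0.40 ± 0.08 (adjusted p = 6.37e-05), ind by 0.23 ± 0.06 (adjusted p = 0.00338), twi by 0.22 ± 0.06 (adjusted p = 0.0019) and ths by 0.18 ± 0.06 (adjusted p = 0.0279). Of the Toll immune genes 2 were tested in each average. Drs, the antifungal peptide gene drosomycin, averaged -0.38 ± 0.16 in the gain of function (adjusted p = 0.0601) and fell by 0.52 ± 0.18 in the mutants (adjusted p = 0.0243).

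Markers of the egg and the early embryo were measured beside the 9 genes. Of 6 egg activation genes, 4 rose in the gain of function and 5 in the mutants, among them smg, the gene of an RNA-binding repressor of maternal transcripts (2.04 ± 0.09 and 1.65 ± 0.10), plu (2.04 ± 0.18 and 1.44 ± 0.22) and, in the mutants, gnu (1.58 ± 0.25). Of 6 zygotic genes of cellularisation, which are transcribed before the stages sampled, 1 rose in the gain of function and 3 in the mutants, with slam at 1.90 ± 0.14 and 2.19 ± 0.16 and halo at 1.79 ± 0.34 in the mutants. nullo averaged -0.01 ± 0.18 and 0.28 ± 0.20 and passed in neither. From early to late mutant stages smg fell (-0.83 ± 0.20, adjusted p = 0.00611), whereas sra, a calcineurin regulator gene of egg activation (0.67 ± 0.18, adjusted p = 0.0156), and the cellularisation gene Sry-alpha (1.64 ± 0.41, adjusted p = 0.00852) rose. By stage, the median over the egg activation genes ranged from 0.17 to 0.97 in the gain of function and from 0.48 to 1.36 in the loss of function, beside 0.33 to 1.08 and 0.16 to 0.99 for the 9 genes. Their part in the ratios of the 9 genes was not tested.

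**Figure D4:**
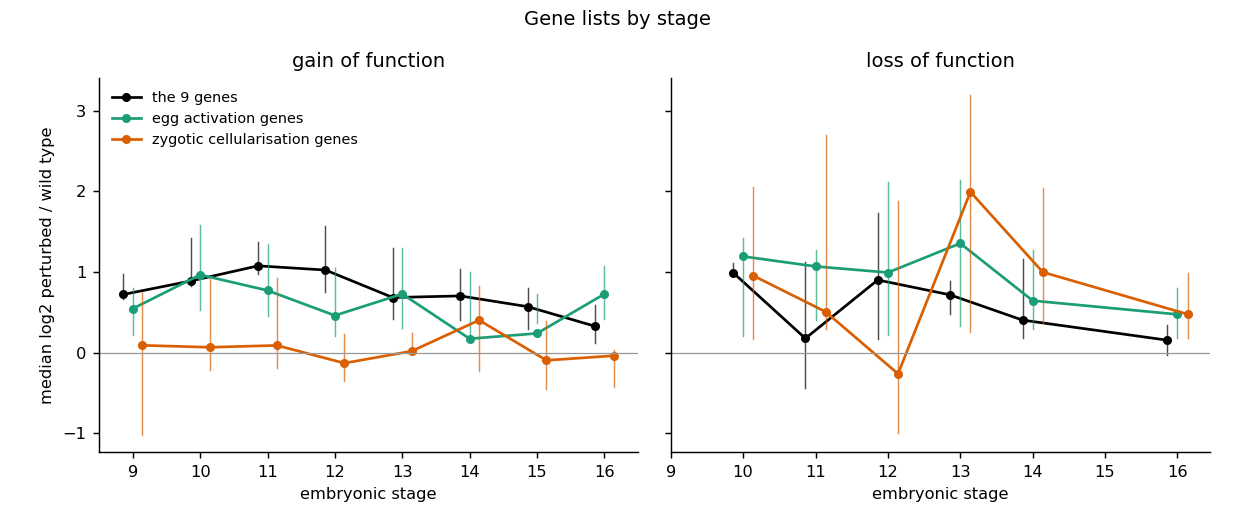
Median log2 ratio of perturbed over wild type (vertical axis) by embryonic stage (horizontal axis) for the 9 genes (black), 6 egg activation genes (green) and 6 zygotic cellularisation genes (orange), in the gain of function (left) and the loss of function (right). Points are medians over genes of the stage means, and vertical lines span the medians of single arrays, which need not enclose the point. In the loss of function the orange point of stage 13 lies at 1.99, above the other lists at that stage.

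The 9 genes did not vary as 1 block from array to array. Over the 36 pairs of genes, the correlation of their ratios across arrays had a median of 0.095 in the gain of function and 0.135 in the loss of function, with ranges from -0.33 to 0.76 and from -0.32 to 0.61. These correlations are across arrays that share stages, dyes and centring and are given as a description. Tl and BicD correlated at 0.76 over 33 gain-of-function arrays and at 0.03 over 25 loss-of-function arrays. swa and BicD correlated at 0.49 and 0.61, Tl and cact at 0.57 and 0.55, and cact and dl at 0.64 and 0.49.

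The genes whose ratios over all arrays were most like those of a member differed from member to member. BicD was followed most closely by CG33695 (r = 0.87), fal (0.87) and Cen (0.86) over 58 arrays, and all 3 were themselves in excess, with gain-of-function averages of 1.46, 1.31 and 1.68. The ratios of swa were most like those of CG46385 (0.77), mdlc (0.76) and CG4572 (0.75), and CG46385 had averages of 1.42 and 1.94. Tl was most like ens (0.86), Slik (0.86) and H (0.84), cact was most like CG12391 (0.90), Cnot4 (0.89) and Rox8 (0.89), and dl was most like hbn (0.90), CG17742 (0.89) and Lim3 (0.89). These correlations too are across arrays that share stages, dyes and centring and are given as a description. The mutant ratio of cact moved with the dye, and the gain-of-function averages of dl, hbn, CG17742 and Lim3 were all 0.02. The lists of yl, tor, spz and grk are weaker or rest on the gap between the experiments. GstD9, the gene most like yl over 54 arrays, correlated with it at 0.22 within the gain of function and at 0.54 within the loss of function. For tor, spz and grk no gene reached r = 0.60.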

How the data were processed

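The values deposited by the authors are the log2 ratio of Cy5 over Cy3 of each spot on each array. Per the labels, images were scanned with ScanArray software 3.1 and quantified with GenePix 5.0. The labels state no normalization, and the arrays were not centred. Each array has 47616 spots, and the repeat of a spot lies 1984 spots later. Exact zeros and values of 9 or more in size were taken as missing, repeat spots were averaged, each array's median was subtracted, and the labelled dyes gave the sign that sets perturbed over wild type. No value column was left out (0 unused).

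Gene names came from the platform annotation, updated through Entrez identifiers to RefSeq (Release 6 plus ISO1 MT, names only). Of 23808 probes, 13455 had 1 gene, 153 several and 10200 none, and 12851 of the first were found by identifier. Of several probes of a gene, the one measured on most arrays was used. Sequences were not used here.

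A linear model with 14 stage and 2 dye coefficients was fitted per probe to all 58 arrays in R 4.3.3 with limma 3.58.1 (squeezeVar) and version 1.17.8 of data.table, with two-sided p-values and Benjamini-Hochberg adjustment over all probes tested. The threshold on adjusted p was 0.05. Testing a stage needed at least 3 arrays and both dye orientations. Stage values are array means with SD, and averages and differences are fitted, with SE. The model was tested on simulated data. Figures used Python and matplotlib.

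The 9 genes and all other lists were chosen with earlier results of these data known. The loss-of-function average and single stages had been planned as tests of the 9 genes, but their p-values are not printed for that reason. Named are the 9 genes, gcm, up to 4 genes of each other list with the largest changes past the threshold, and for each of the 9 the 3 genes most like it by Pearson correlation over at least 40 arrays. egl, nullo and the yolk protein genes were chosen after their values were seen, and osk, which was not tested, is also named outside this rule. Alternatives changed the centring, array scale, dye terms, zeros, repeat spots, missing-value filter, arrays and replicate block.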

Additional observations from a re-analysis of the deposited data

Results flagged for a closer look

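Single arrays stood apart from the others of their stage in 4 of the 128 sets of 4 or 5 arrays that were tested for this with Dixon's criterion, which chance alone flags in about 1 in 20 sets. For grk at loss-of-function stage 11, replicate 1 gave 1.13 and the other arrays -0.41 to -0.21. Replicate 1 is the only array of that stage with mutant RNA in Cy3. For swa at gain-of-function stage 13, replicate 1 gave 1.23 and the others 2.17 to 2.25. For BicD at loss-of-function stage 11, replicate 2 gave -1.73 and the others 2.06 to 2.45. Without that array the loss-of-function average of BicD was 0.91 and its late minus early difference -1.65, beside 0.75 and -1.31 with it. For BicD at loss-of-function stage 13, replicate 2 gave -0.19 and the others 0.41 to 0.48.

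Early and late stages differed by a test of the difference for 4 of the 9 genes. Of all probes, 1.36% passed in the gain of function and 5.56% in the loss of function. The ratios were lower at the late stages in all 5 calls. In the gain of function the difference on the log2 scale was -0.491 for Tl and -1.087 for BicD. In the loss of function it was -1.212 for spz, -0.996 for swa and -1.305 for BicD. The Tl call was lost without any 1 of 28 arrays. On the loss-of-function arrays alone, the limma adjusted p of BicD was 0.0761. For stage 13 minus stages 10 to 12, 0 of the 9 genes passed.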

How the results depend on the processing

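Under the alternatives tried and in 58 fits without 1 array each, no average or late minus early difference of the 9 genes that had passed changed its sign, but calls did change. Without centring, 1854 probes passed in the gain-of-function average (74.4% higher, against 50.9% with centring) and 2105 in the loss-of-function average (77.6% higher, against 50.3%). Late minus early then gave 1 probe and 0 of the 9 genes in the gain of function, 2654 probes (99% higher, against 71.2%) in the loss of function with 2 of the 9 genes, both higher, and 2802 probe calls over single mutant stages. Scaling arrays to one spread gave 434 probes in gain-of-function late minus early, 37.8% higher against 21.9%. Keeping exact zeros gave 67 there. Restricting repeat spots to an SD under 0.333 let a value be fitted only for Tl, dl and BicD in both gain-of-function comparisons and for Tl, cact and dl in both of the loss of function, and left 2012 probes and 2 of the 9 genes in the gain-of-function average, 1483 and 1 in the loss-of-function average, 648 probes in gain-of-function late minus early, and 388 and 0 in the loss of function. The called anteroposterior genes of the gain-of-function average then numbered 3, of which 2 were higher, as they did without stage 9. The fit on each experiment alone gave 401 and 304 probes in late minus early and 3116 calls over mutant stages. Gain-of-function late minus early had 128 probes without the arrays lacking over 40% of probes and 374 without the arrays in doubt, and without stage 9 it had 108 and 1 of the 9 genes, BicD. In that comparison 1 of the 9 genes, BicD, passed without dye terms, with exact zeros, with no missing-value filter, without the arrays lacking over 40% and with the replicate block. Replicate numbers did not pair the arrays (median correlation of residuals -0.027 and -0.035 for equal numbers, -0.037 and -0.044 for others), and with the replicate block the loss-of-function average had 2680 probes. Stage 13 minus stages 10 to 12, chosen after seeing the data like the fits on arrays in doubt, stage 9 and discordant spots, left 0 of the 9 genes. The cause of these changes was not tested. The call of spz could not be fitted without the arrays in doubt.

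Without 1 array at a time, the number of the 9 genes that passed ranged from 5 to 7 and from 3 to 6 in the averages of the gain and the loss of function. In late minus early it ranged from 1 to 2 and from 2 to 3. The calls of the 9 genes, each gene counted once per single mutant stage, ranged from 17 to 20, beside 19 with all arrays. The probes that passed numbered 3648 to 4294 and 3479 to 4232 in the averages and 128 to 295 and 704 to 1098 in late minus early. Probe calls over single mutant stages numbered 6981 to 8347. In the loss-of-function average, the count of 3 genes came without replicate 1 or replicate 3 of loss-of-function stage 11. The probe count of gain-of-function late minus early moved by over 1.5 times without replicate 1 of stage 9 and without replicate 4 of stage 11. In the loss-of-function average, Tl lost its call under 7 alternatives and without any 1 of 11 arrays, and spz under 6 and without any 1 of 34.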
